A study of Mus musculus with 12 samples.

Results

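The genes described here are 10 transcripts made by blood-forming cells, read in bulk RNA-seq of mouse trigeminal ganglia. They were listed by name, with earlier results of these data known, and they are 10 of the 55416 genes in the count files. Of these, 5 encode proteins of neutrophil granules and cytosol (S100a8, S100a9, Ngp, Camp and Ltf) and 5 belong to red cells (the globins Hbb-bs, Hbb-bt, Hba-a1 and Hba-a2, and the haem enzyme Alas2). The question put to them was which libraries carry transcripts of blood or marrow, and whether the red cell and neutrophil kinds rise together.

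The trigeminal ganglion is the cluster of sensory neurons that serves the face, and the study compared adult C57Bl6 mice with and without Prdm12, a transcriptional regulator of pain-sensing neurons. All 6 inducible knockouts (iKO) were Rosa26Cre ERT2; Fl/Fl and were injected with tamoxifen, the drug that sends Cre ERT2 into the nucleus to cut out the Fl segment of Prdm12, 1 month before the ganglia were taken. Of these, iKO 1 to 3 were female and iKO 4 to 6 male. The 6 controls were a mixture. Control 1 was a Rosa26Cre ERT2; Fl/+ female, control 2 a +/+; Fl/+ female, control 3 a +/+; Fl/+ male and control 4 a Rosa26Cre ERT2; +/+ male, all with tamoxifen, while controls 5 and 6 were Rosa26Cre ERT2; Fl/Fl males with corn oil. The Rosa26 locus is active in nearly all cell types, blood-forming cells included, so tamoxifen could act on Fl alleles outside neurons. The labels give microdissection in cold buffer and do not speak of perfusion, of blood removal or of how cleanly the ganglion was parted from the skull.

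Neutrophils are short-lived white cells that are made in bone marrow and circulate in blood. They load their granules in order while they mature: azurophil granules with enzymes such as myeloperoxidase come early, and specific granules with lactoferrin and cathelicidin come later, so the transcripts of granule proteins are most abundant in marrow precursors, whereas S100a8 and S100a9 stay abundant in mature cells. Red cells also mature in marrow and lose their nucleus there. Young red cells in the blood, the reticulocytes, still carry globin mRNA, while membrane and regulator genes such as Slc4a1 and Klf1 mark the nucleated erythroblast. The skull bone next to the trigeminal ganglion holds marrow.

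The sequences before the start sites of these genes show what each family shares. These windows are the 150 bases before the RefSeq start in the table of build GRCm38.p6, an older build than the GRCm39 on which reads were counted. They are printed 5′ to 3′ on the strand of the gene. Shown are the globin pairs, whose members move together, and 3 neutrophil genes, of which Ltf parts from the others. Capitals mark the motifs CCAAT and TATAA and the longer CCACACCC in the globin genes, and the motif TTNNGNAA, which C/EBP factors bind, in the neutrophil genes, searched on both strands.
Hbb-bs (chr7:103827929-103828078, minus strand): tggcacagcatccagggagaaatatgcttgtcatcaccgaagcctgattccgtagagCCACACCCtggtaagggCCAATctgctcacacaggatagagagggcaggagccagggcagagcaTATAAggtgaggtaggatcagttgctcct
Hbb-bt (chr7:103813924-103814073, minus strand): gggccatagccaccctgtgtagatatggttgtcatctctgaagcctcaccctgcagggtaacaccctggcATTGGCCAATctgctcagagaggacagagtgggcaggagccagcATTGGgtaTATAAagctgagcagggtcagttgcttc
Hba-a1 (chr11:32283522-32283671, plus strand): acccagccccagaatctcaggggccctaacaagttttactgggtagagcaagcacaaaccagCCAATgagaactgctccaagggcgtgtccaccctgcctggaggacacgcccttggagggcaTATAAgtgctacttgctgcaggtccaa
Hba-a2 (chr11:32296342-32296491, plus strand): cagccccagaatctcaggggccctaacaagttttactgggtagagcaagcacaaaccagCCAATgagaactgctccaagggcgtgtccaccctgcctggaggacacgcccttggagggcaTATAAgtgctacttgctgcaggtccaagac
Ngp (chr9:110419658-110419807, plus strand): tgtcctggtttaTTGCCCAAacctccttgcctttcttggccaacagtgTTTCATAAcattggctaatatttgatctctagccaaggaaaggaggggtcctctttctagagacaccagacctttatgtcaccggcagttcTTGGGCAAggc
Camp (chr9:109849457-109849606, minus strand): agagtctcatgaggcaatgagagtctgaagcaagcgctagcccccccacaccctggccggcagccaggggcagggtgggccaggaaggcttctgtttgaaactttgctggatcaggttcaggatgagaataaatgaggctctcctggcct
Ltf (chr9:111019142-111019291, plus strand): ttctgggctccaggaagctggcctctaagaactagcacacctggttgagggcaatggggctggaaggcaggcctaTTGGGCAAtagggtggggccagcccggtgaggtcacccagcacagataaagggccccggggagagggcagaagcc

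All 4 globin windows held CCAAT and TATAA, which were found in 24.5% and 14.15% of the 32851 RefSeq windows of the same length. TATAA began 27 to 30 bases before each globin start. CCAAT was also found in Ngp and Ltf, and TATAA in S100a8. Alas2 had neither, but held AGATAA, the core bound by GATA factors, which was present in 5.647% of all windows and which was also found in S100a9 and Ltf. CCACACCC, found in 2.18% of windows, was present in Hbb-bs and in Camp. TTNNGNAA was in 4 of the 5 neutrophil windows, all but Camp, and in none of the 5 red cell windows, against 22.75% of all windows. GAGGAA, the core bound by PU.1, was in S100a8 and Alas2 and in 14.47% of windows. These are matches of letters and not measured binding sites. The 2 Hba windows were 96.08% identical and the 2 Hbb windows 73.72%. The transcripts are alike too: 89.3% of the 50-base words of the Hba-a2 transcript also occur in Hba-a1, and 58.3% of those of Hbb-bt occur in Hbb-bs. Reads from such stretches cannot be assigned to 1 copy, and how the counting treated them is not given in the sources used here, so the split within each globin pair is uncertain. S100a8 and S100a9 shared no 50-base word, nor did Ngp and Camp.

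The libraries held 13207526 to 24178970 counts each, and levels are given as CPM, the count scaled to that total. A gene with no count could still be present at up to 0.227 CPM in the shallowest and 0.124 CPM in the deepest library, taking 3 counts as the limit, which covers counting error only. All 10 genes passed the filter on low counts. Prdm12 was lower in every iKO library (13.2 to 18.5 CPM) than in every control (57.6 to 132 CPM). Sensory neuron genes such as Tubb3, Prph and Avil dominated every library, with a sum over 6 of them of 3779 to 5325 CPM. The blood-cell genes summed to 0.0107% of the counts in control 1 and 0.233% in control 6. Each library is labelled as a replicate of its group. In this bulk material more cells of a type and more RNA per cell cannot be told apart.

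S100a8 and S100a9 encode the 2 chains of calprotectin, a metal-binding protein of neutrophil cytosol. S100a9 (ENSMUSG00000056071) measured 22.9, 55.2, 22.4, 38.7, 29.9 and 528 CPM in controls 1 to 6, and 23.7, 26.0, 6.32, 31.6, 216 and 77.4 CPM in iKO 1 to 6. S100a8 (ENSMUSG00000056054) measured 14.3, 33.7, 14.8, 24.9, 17.4 and 304 CPM in the controls, and 14.6, 19.0, 2.88, 21.9, 122 and 52.2 CPM in iKO. Control 6 was the highest library for both, iKO 5 the second and iKO 6 the third, and iKO 3 was the lowest. The groups overlapped over most of their range. S100a8 spanned a 105-fold range over the 12 libraries and S100a9 an 83.6-fold range.

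Ngp and Camp encode neutrophilic granule protein and cathelicidin, both stored in the specific granules, and their genes lie near each other on chromosome 9. Ngp (ENSMUSG00000032484) measured 16.5, 36.0, 14.1, 29.3, 20.5 and 278 CPM in controls 1 to 6, and 13.7, 13.8, 3.39, 22.5, 126 and 50.7 CPM in iKO 1 to 6. Camp (ENSMUSG00000038357) measured 3.90, 14.8, 5.64, 9.95, 8.84 and 147 CPM in the controls, and 4.15, 4.77, 1.82, 7.13, 64.9 and 21.3 CPM in iKO. The order at the top (control 6, iKO 5, iKO 6) and the lowest library (iKO 3) were those of S100a8 and S100a9. Control 6 exceeded the median of the other 11 libraries 13.6-fold for Ngp and 20.6-fold for Camp, and iKO 5 exceeded the median of its other 11 libraries 6.13-fold and 9.11-fold.

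Ltf encodes lactoferrin, an iron-binding protein of the specific granules that gland epithelium makes as well. Ltf (ENSMUSG00000032496) measured 21.5, 38.3, 131, 34.2, 20.7 and 219 CPM in controls 1 to 6, and 31.6, 70.9, 4.33, 28.8, 131 and 286 CPM in iKO 1 to 6. Its highest library was iKO 6, not control 6, and control 3 and iKO 2 were also high, although their S100a8, Ngp and Camp were not. The lowest library was again iKO 3.

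The red cell genes followed another order. Hbb-bs and Hbb-bt encode adult beta globins. Hbb-bs (ENSMUSG00000052305) measured 14.8, 58.2, 51.5, 25.6, 44.0 and 494 CPM in controls 1 to 6, and 13.7, 12.7, 72.6, 22.6, 99.3 and 54.1 CPM in iKO 1 to 6. Hbb-bt (ENSMUSG00000073940) measured 3.97, 18.2, 15.01, 6.87, 12.1 and 131 CPM in the controls, and 4.20, 2.57, 16.6, 6.64, 28.2 and 15.2 CPM in iKO. Control 6 and iKO 5 were the 2 highest here too, but iKO 2 was the lowest, and iKO 3, at the bottom for every neutrophil gene, was the third highest for Hbb-bs. Both groups held low libraries, with control 1 close to iKO 1 and iKO 2.

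Hba-a1 and Hba-a2 encode adult alpha globin. Hba-a1 (ENSMUSG00000069919) measured 3.69, 13.8, 10.2, 8.23, 11.8 and 117 CPM in controls 1 to 6, and 4.20, 3.33, 15.7, 5.83, 20.6 and 9.82 CPM in iKO 1 to 6. Hba-a2 (ENSMUSG00000069917) measured 2.86, 8.74, 8.33, 4.74, 7.89 and 71.9 CPM in the controls, and 2.21, 1.36, 10.1, 4.34, 14.1 and 6.11 CPM in iKO. The alpha globins thus ranked control 6, iKO 5 and iKO 3 at the top, and iKO 2 at the bottom. Alas2, the erythroid enzyme of the initial step of haem synthesis (ENSMUSG00000025270), measured 2.79, 7.19, 8.15, 3.61, 5.497 and 40.3 CPM in the controls, and 2.33, 1.89, 8.14, 2.48, 11.99 and 6.84 CPM in iKO. Its highest and lowest libraries were the same as for the globins, while control 3 and iKO 3 were nearly equal.

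**Figure D1:**
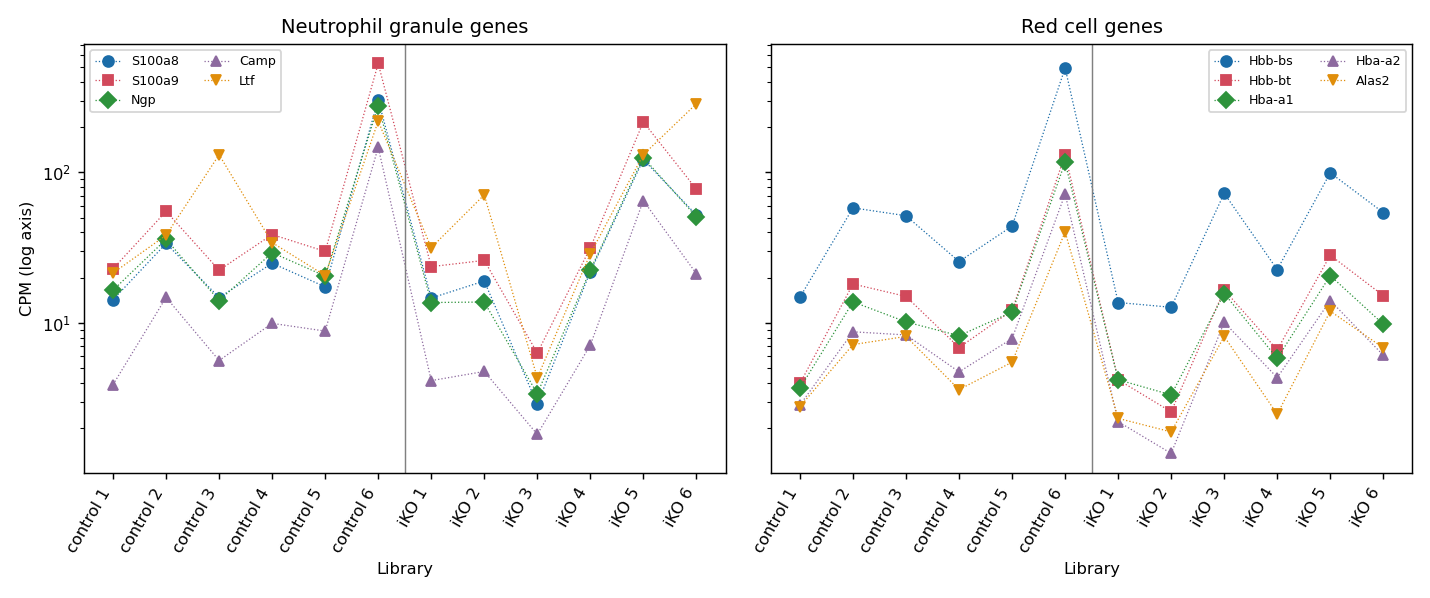
CPM on a log axis of the 5 neutrophil genes (left) and the 5 red cell genes (right) in each of the 12 libraries, with controls left and iKO right of the grey line. Points are single libraries joined by dotted lines only to guide the eye. Control 6 is the highest for 9 of the 10 genes, iKO 3 is low for the neutrophil genes and not for the red cell genes, and Ltf leaves the other neutrophil genes in control 3, iKO 2 and iKO 6.

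Control 6 was thus the highest library for 9 of the 10 genes, where 13.8% of the 16637 tested genes had their highest level in it. All 5 neutrophil genes were lowest in iKO 3, the lowest library of 5.51% of tested genes, and all 5 red cell genes were lowest in iKO 2, the lowest library of 20.6%. These counts are not independent, since the members of each kind moved together. The variation was large for the tissue: the SD of log2(CPM + 1) over the 12 libraries put the 10 genes at ranks 29 to 139 among the 16637 tested genes.

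Levels were compared between genes only per kilobase of exon. The median library held 62.2 CPM per kilobase of Hbb-bs and 58.8 of S100a9, followed by 29.5 of S100a8, 19.3 of Hbb-bt, 17.6 of Ngp and 12.3 of Hba-a1. Camp, Ltf and Hba-a2 were level at 10.5 each, and Alas2 was the lowest at 2.57. S100a9 was above S100a8 in 12 of 12 libraries and Hba-a2 above Alas2 in 12 of 12, but Hbb-bs was above S100a9 in only 3, so these neighbours have no fixed order. Neither do Hbb-bt and Ngp, where Hbb-bt was higher in 3 libraries, nor Hba-a1 and Camp, where Hba-a1 was higher in 3.

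Within each kind, Ltf aside, the proportions varied less than the levels. The count of S100a9 was 1.37 to 2.19 times that of S100a8 over the 12 libraries. Hbb-bt made up 16.8% to 23.8% of the beta globin counts, Hba-a2 29.0% to 45.03% of the alpha globin counts, and alpha globin 18.7% to 28.6% of all counts of the 4 globins. Hbb-bs was 5.33 to 12.3 times Alas2 in counts, highest in control 6. The genes themselves differed by 21.3-fold (Alas2) to 105-fold (S100a8) between their highest and lowest libraries.

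The 2 kinds did not hold a steady proportion to each other. The red cell genes summed to 21.9 CPM in iKO 2 and to 854 CPM in control 6, with 123 CPM in iKO 3 and 174 CPM in iKO 5. The neutrophil genes summed to 18.7 CPM in iKO 3 and 1476 CPM in control 6, with 659 CPM in iKO 5 and 487 CPM in iKO 6. Of the counts of the red cell genes plus the neutrophil genes other than Ltf, the red cell genes took 89.5% in iKO 3 (95% Wilson interval 88.4% to 90.5%). In the other 11 libraries this share ran from 24.8% in iKO 5 to 62.1% in control 3. The intervals cover counting error only, since these reads carry no molecular identifiers.

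Whether the genes rose together was measured by correlating log2(CPM + 1) over the 12 libraries for all 45 pairs, with p-values from two-sided permutation tests adjusted over the 45 by the Benjamini-Hochberg method. All 10 red cell pairs had Pearson's r between 0.974 and 0.995, Spearman's rho between 0.923 and 0.986, and adjusted p of at most 0.000225 by either measure. The 6 pairs of neutrophil genes other than Ltf had r between 0.974 and 0.996 and rho between 0.930 and 0.972, with adjusted p of at most 0.00012. Ltf correlated less with the other 4 neutrophil genes, with r between 0.718 and 0.790 (adjusted permutation p 0.00704 to 0.0145) and rho between 0.643 and 0.769, of which 2 had an adjusted p under 0.05.

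Between the kinds, the 25 pairs had a median r of 0.669 (0.345 to 0.798), of which 16 had an adjusted permutation p under 0.05 by r (0.0119 to 0.276 over the 25). By rank, rho ran from 0.238 to 0.664 and none of the 25 passed (adjusted permutation p 0.0520 to 0.454). The 2 libraries farthest from the median of the neutrophil gene were then left out, which were control 6 and iKO 5 for S100a8, S100a9, Ngp and Camp, and iKO 3 and iKO 6 for Ltf. In the 20 pairs without Ltf, r fell from 0.637 to 0.798 over 12 libraries to -0.146 to 0.358. The libraries left there include iKO 3, the lowest for all 5 neutrophil genes. In these 20 pairs r was 0.226 to 0.581 without control 6 alone, and 0.853 to 0.924 without iKO 3 alone. Leaving out control 6, iKO 5 and iKO 3 together was not tested for r. In the 5 pairs with Ltf, r rose from 0.345 to 0.442 over 12 libraries to 0.662 to 0.751 without iKO 3 and iKO 6. Over all 25 pairs the median was then -0.00129. Without control 6 alone, r ran from 0.0426 to 0.581 over the 25 pairs, and without iKO 3 alone from 0.540 to 0.924.

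Replicates 1 to 4 (4 controls and 4 iKO) and replicates 5 and 6 have different controls, and iKO 3 is in the first set. Over the 8 libraries of replicates 1 to 4, r between the kinds ran from -0.337 to 0.182, and none of the 25 pairs passed (adjusted p 0.832 to 0.934, exact permutation test). Within the kinds it held there for the pairs without Ltf: red cell pairs had r of 0.928 to 0.984, and neutrophil pairs other than Ltf 0.902 to 0.993, with adjusted p under 0.05 by r in 10 of 10 and 6 of 6 pairs (exact permutation test). Ltf and the other 4 neutrophil genes had r of 0.504 to 0.676 there, and 0 of these 4 pairs passed (adjusted p 0.408 to 0.435, exact permutation test). Replicates 5 and 6 hold only 4 libraries, too few for a correlation. Their 4 libraries had the 3 highest sums of neutrophil genes, and control 5, the remaining library, had 97.3 CPM, below the median of all 12 libraries (136 CPM).

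**Figure D2:**
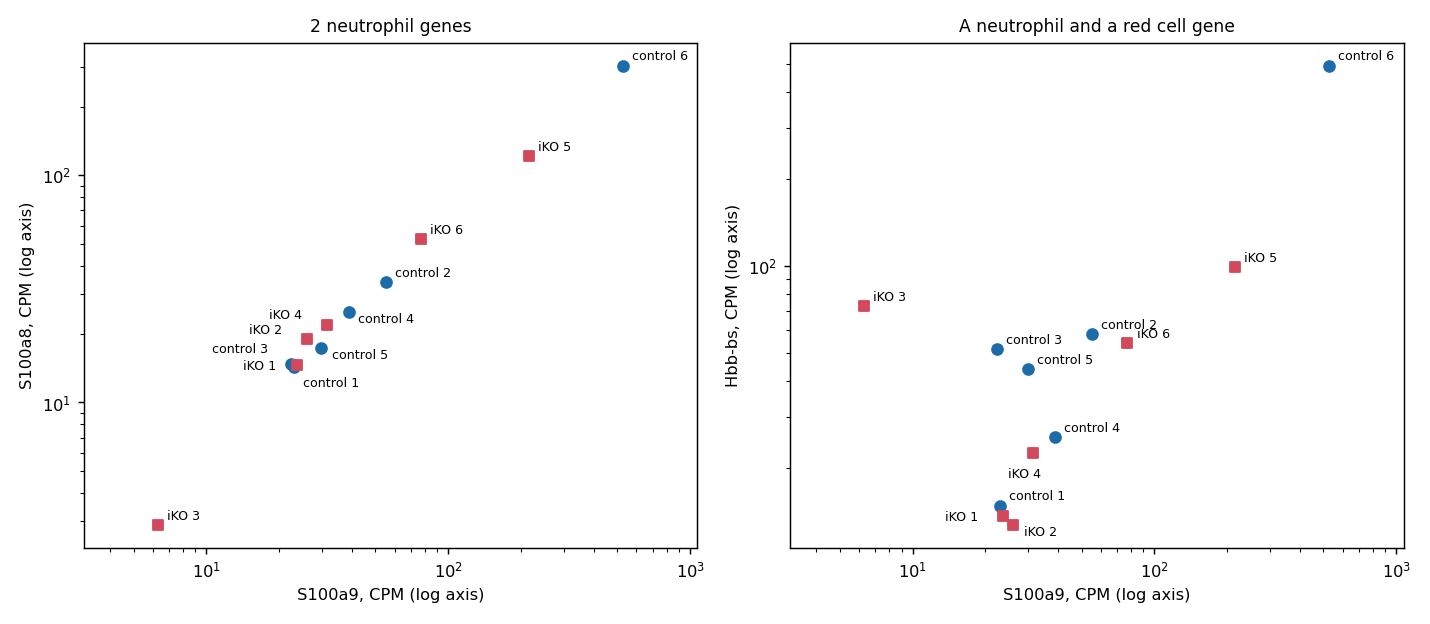
CPM of S100a8 against S100a9 (left) and of Hbb-bs against S100a9 (right), both axes logarithmic, with blue circles for controls and red squares for iKO, 1 point a library. The left points lie along a line from iKO 3 (6.32 CPM S100a9) to control 6 (528 CPM), while on the right iKO 3 has the third highest Hbb-bs (72.6 CPM) at the lowest S100a9.

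Ltf was set beside Camp, which sits in the same granules. The ratio of Ltf to Camp counts had a median of 3.74 over the 12 libraries and ran from 1.49 in control 6 to 23.2 in control 3, with 14.9 in iKO 2, 13.4 in iKO 6 and 7.63 in iKO 1. The libraries with a high ratio included 2 females and 2 males, and 1 control and 3 iKO. The genes most like Ltf were looked for after its values had been seen, and are a description. Pglyrp1, a peptidoglycan-binding protein of neutrophil granules, had r = 0.943 over 12 libraries and was highest in iKO 6 at 61.9 CPM. Gsr, glutathione reductase, had r = 0.919 with a narrow range, from 51.9 to 71.6 CPM, and was highest in control 6. Cd177, a surface protein of neutrophils, had r = 0.918 and reached 120 CPM in iKO 6, 37.8 CPM in control 6, 27.5 CPM in iKO 5 and 20.9 CPM in control 3. Lyz2, the lysozyme of myeloid cells, had r = 0.910 and 552 CPM in iKO 6 against a median of 135 CPM. Myb, a regulator of blood precursors, was the fifth, with r = 0.908 and its highest level, 7.01 CPM, in control 6. Cd177 and Ltf were both high in control 3, in which Camp was at 5.64 CPM. In iKO 2, where Ltf measured 70.9 CPM, Cd177 was not high, at 7.50 CPM against its median of 8.30 CPM.

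**Figure D3:**
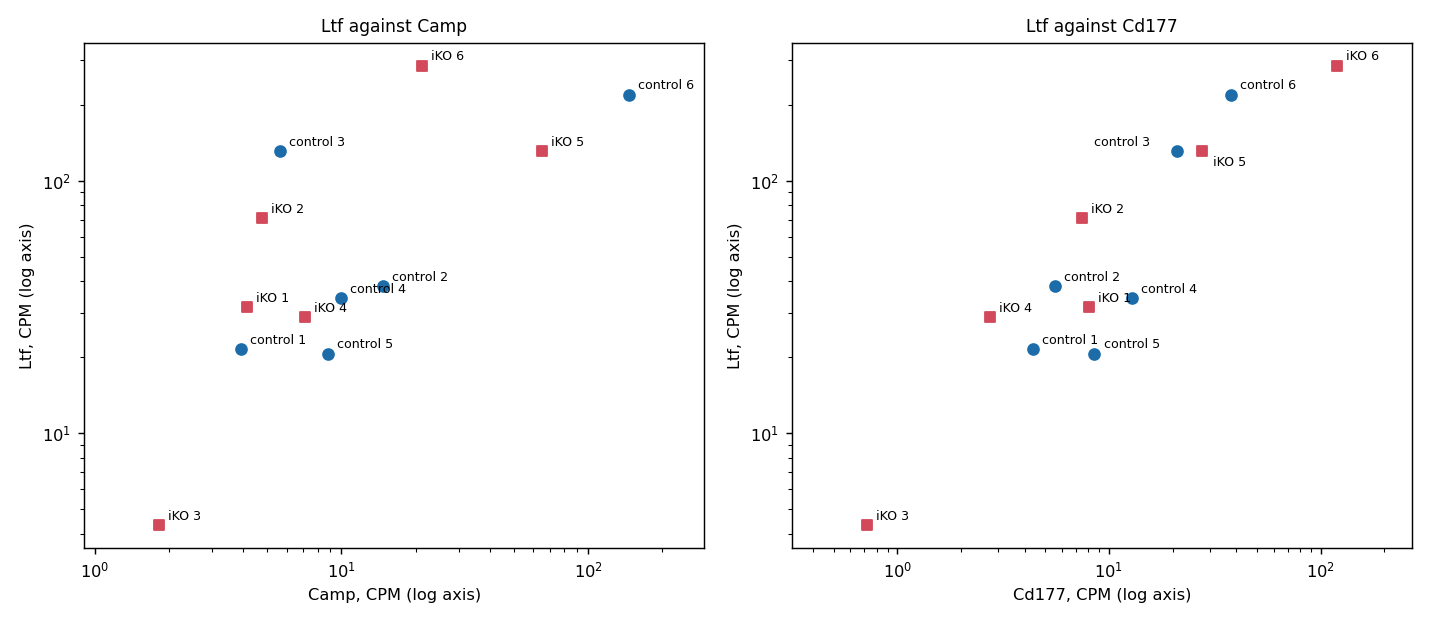
CPM of Ltf against Camp (left) and against Cd177 (right), both axes logarithmic, 1 point a library, with blue circles for controls and red squares for iKO. On the left control 3, iKO 2 and iKO 6 lie above the other libraries, and on the right they lie in a band with them, with iKO 6 at the top for both Ltf (286 CPM) and Cd177 (120 CPM).

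By the likeness rule, the 5 genes whose pattern over the 12 libraries was nearest to the mean of the 5 neutrophil genes were Hp (r = 0.979), Lcn2 (0.973), Retnlg (0.971), Chil3 (0.969) and Mpo (0.963). Hp encodes haptoglobin, which binds free haemoglobin, yet its pattern (0.551 CPM in iKO 3, 31.4 CPM in control 6) was that of the neutrophil genes. Lcn2 encodes the siderophore-binding lipocalin of specific granules and Mpo myeloperoxidase. The 5 nearest to the mean of the red cell genes were Unc93b1 (r = 0.962), Plcl2 (0.962), Fam117a (0.954), Pold1 (0.944) and Cmtm7 (0.937). None of them is on the erythroid list, and they varied little: Unc93b1 ran from 16.8 to 32.0 CPM and Plcl2 from 9.16 to 14.6 CPM.

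Other genes of the neutrophil programme were taken from lists. Of 18 late and mature neutrophil genes, 14 passed the filter, and 13 of the 14 were highest in control 6, with a median 12.1-fold above the other libraries. In iKO 3, 12 of the 14 were lowest. Lcn2 measured 94.6 CPM in control 6, 38.1 CPM in iKO 5, 29.6 CPM in iKO 6, with 2.42 CPM in iKO 3. Mmp9, a gelatinase of tertiary granules, measured 56.0, 39.3, 9.93 and 2.46 CPM in the same 4 libraries. Of 9 early granulocyte genes, whose proteins go into azurophil granules or which mark their makers, 5 passed and all 5 were highest in control 6 and lowest in iKO 3. Mpo measured 57.4 CPM in control 6, 45.4 CPM in iKO 5, 8.93 CPM in iKO 6 and 0.382 CPM in iKO 3. The elastase gene Elane measured 27.9, 23.2, 4.18 and 0.127 CPM in the same libraries, and Prtn3, proteinase 3, 27.9, 19.0, 4.39 and 0.594 CPM. In iKO 3 the Elane level was that of 3 counts, the limit a count of 0 allows.

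For 5 of the early genes, chosen after their values were seen (Elane, Mpo, Prtn3, Ctsg and Fcnb), the values are a description only. Their sum was 101.4 CPM in iKO 5 and 134 CPM in control 6, against 1.15 to 21.4 CPM in the other 10. Their share of the counts of these 5 plus S100a8, S100a9, Ngp and Camp was 16.1% in iKO 5, 9.61% in control 6 and 5.36% to 11.03% over the 11 libraries other than iKO 5.

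Of 20 other erythroid genes, 19 matched a gene in the files and 15 passed the filter, and 13 of the 15 were highest in control 6, with a median 7.39-fold above the other libraries. Slc4a1, the anion exchanger of the red cell membrane, measured 56.7 CPM in control 6, 21.5 CPM in iKO 5, 14.3 CPM in iKO 6 and 1.36 CPM in iKO 3. Of the genes of that list with the highest levels, Sptb, a spectrin, ran from 213 to 284 CPM with control 6 at 234 CPM. Slc25a37, a mitochondrial iron carrier, ran from 37.9 CPM to 67.7 CPM in control 6, with iKO 5 the second at 49.5 CPM. For 5 genes chosen after their values were seen as the erythroblast genes (Slc4a1, Hemgn, Rhag, Klf1 and Gata1), the share of the counts of these 5 plus the 4 globins was 1.67% in iKO 3 and 7.22% to 17.3% in the other 11 libraries. Since these genes were picked with their values known, the share is a description only.

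The 8 genes of haem synthesis other than Alas2 showed little: 5 of 8 were highest in control 6, with a median of 1.12-fold, and Fech, the ferrochelatase, ran from 80.1 to 95.6 CPM. Of 8 genes that clear haem and globin, 7 passed and 4 of those were highest in control 6, with a median of 1.23-fold, among them Lrp1 at 151 to 259 CPM over the 12 libraries. The embryonic globins Hbb-y, Hba-x and Hbb-bh1 stayed at 0 to 0.362 CPM in sum. Of 5 receptor genes for S100a8 and S100a9, 0 were highest in control 6 and 2 in iKO 5. Tlr4 ran from 7.55 to 10.3 CPM, while Cd14 was highest in iKO 6 at 12.8 CPM and Cd36 in control 3 at 16.7 CPM. Of 10 genes of neutrophil recruitment, such as Icam1 and Ccl2, 3 passed and 0 were highest in control 6. Since 13.8% of tested genes were highest in control 6, a count of 0 among so few genes is no result about them.

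Markers of other marrow, blood and bone cells moved with the 10 genes. Of 7 platelet and megakaryocyte genes that passed (of 12), all 7 were highest in control 6 and second in iKO 5, where 4.84% of tested genes have these as their 2 highest libraries. Ppbp, a platelet chemokine, measured 53.7 CPM in control 6, 19.8 CPM in iKO 5 and 0.0568 CPM, a lone count, in iKO 1. Of 6 proliferation genes 5 passed and all 5 were highest in control 6, second in iKO 5 and lowest in iKO 3, with Mki67 at 52.5, 24.4 and 3.65 CPM. All 11 bone and cartilage genes had control 6 and iKO 5 as their 2 highest libraries, with iKO 5 the highest for 7 (7.6% of tested genes were highest in it). Their sum was 159 CPM in control 6, 177 CPM in iKO 5 and 29.6 to 61.3 CPM in the other 10. Acp5 and Ctsk, made by bone-resorbing osteoclasts, measured 28.8 and 30.5 CPM in control 6 and 28.8 and 31.6 CPM in iKO 5, and Ibsp, a bone matrix protein, 28.5 and 27.8 CPM. In iKO 6 the same bone sum was 43.7 CPM, and in iKO 3 40.2 CPM.

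White cells of other kinds were higher in control 6 as well. Of 6 monocyte genes 5 were highest in it, with a median of 5.08-fold, and their sum was 158 CPM there, 70.3 CPM in iKO 5 and 20.9 to 46.1 CPM elsewhere. Of 7 lymphocyte genes that passed (of 10), 6 were highest in it, with a sum of 25.1 CPM against 5.15 to 12.8 CPM in the other libraries. Of 7 B cell precursor genes 1 passed the filter, Vpreb3, which was highest in iKO 6 at 3.71 CPM, and the list summed to 0.297 CPM in iKO 3 and 6.63 CPM in control 6. Tissue macrophage genes (4 of 9 highest in control 6, median 1.54-fold) and endothelial genes (1 of 7, median 1.19-fold) stood out less, and 0 of 6 sensory neuron genes were highest there. Of all tested genes, 13.8% were highest in control 6. Of 5 satellite glia genes 3 were highest in control 6, with a sum of 4218 CPM against 1306 to 3294 CPM elsewhere. The lists overlap a little: 2 of the neutrophil genes, 1 of the monocyte genes and 2 of the clearance genes are on another list as well. The part of these cell types in the levels of the 10 genes was not tested.

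**Figure D4:**
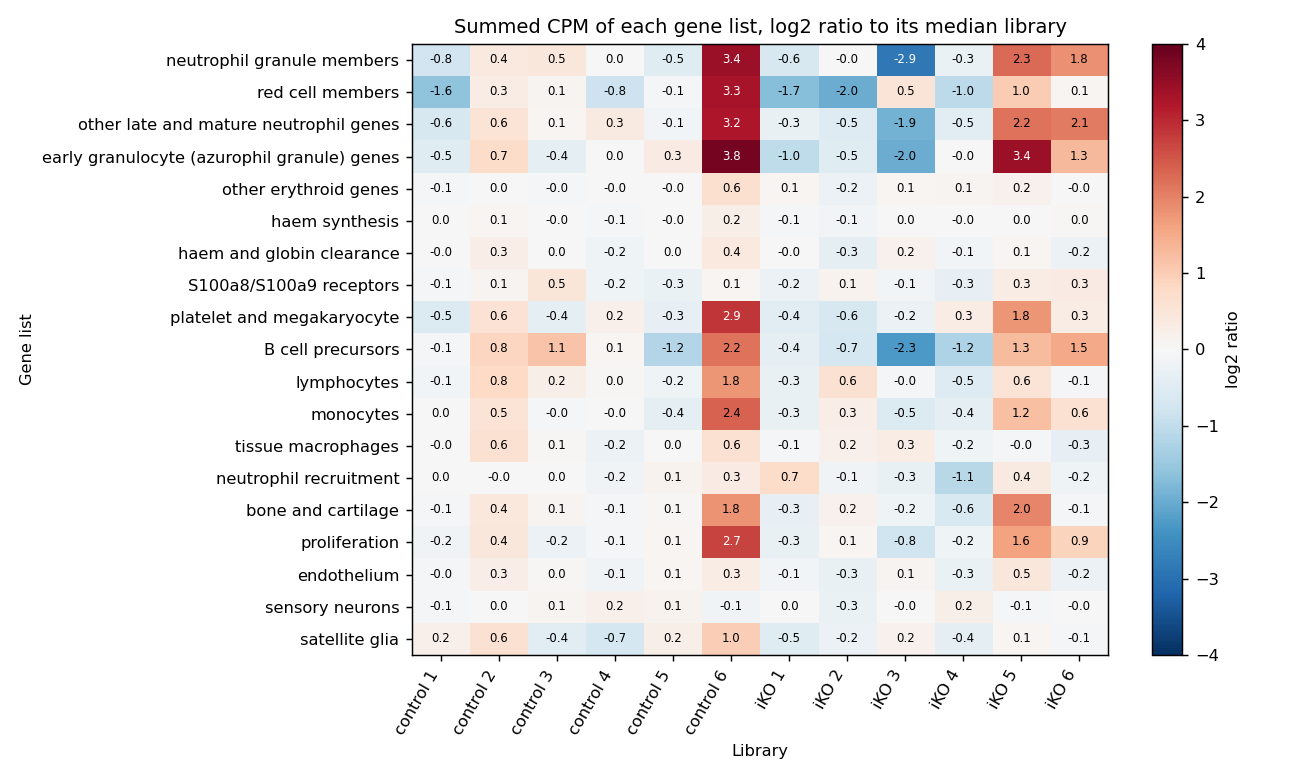
Rows are gene lists and columns the 12 libraries, and the colour and the printed number give the log2 ratio of the list's summed CPM to its median library. The neutrophil, azurophil, platelet and proliferation lists are high in control 6 and iKO 5, the bone list in those 2 libraries, and iKO 3 is low for the neutrophil lists and the B cell precursors and not for the red cell genes.

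The 10 genes were then compared between iKO and control in edgeR's quasi-likelihood test, with sex as a covariate. None of the 10 passed an adjusted p of 0.05, where 63 of 16637 tested genes (0.379%) did. No member had an unadjusted p under 0.05 and none was separate between the groups, as were 1.35% of tested genes. S100a9 was 116 ± 202 CPM in controls and 63.5 ± 78.5 CPM in iKO (mean ± SD, n = 6 each). Its log2 fold change was -0.74 ± 0.773 (SE), with a 95% interval of -2.41 to 0.93 and an adjusted p of 0.775. Hbb-bs was 115 ± 186 CPM in controls and 45.8 ± 35.5 CPM in iKO, with a log2 fold change of -0.90 ± 0.798 (SE), an interval of -2.63 to 0.82 and an adjusted p of 0.734. The medians were -0.74 for the neutrophil genes and -0.99 for the red cell genes, against 0.00 for all genes tested. Ltf alone had a value above 0, at 0.41 ± 0.681 (SE). DESeq2 also gave no call, with an adjusted p of at least 0.739 for the 8 genes that had one.

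The sign of most of these values turned when control 6 was left out. Without it the log2 fold change was above 0 for 9 of the 10 genes: S100a8 measured 0.54, S100a9 0.53, Camp 0.50, Ngp 0.31, Ltf 0.80 and Hbb-bs 0.23, and Hbb-bt, Hba-a1 and Alas2 were between 0.05 and 0.09. Hba-a2 measured -0.02. None passed the test there. Tamoxifen-injected animals alone were also compared, which leaves out controls 5 and 6. There S100a8 was 0.29, S100a9 0.28, Camp 0.24, Hbb-bs 0.22, Hba-a1 0.10, Ngp 0.05 and Hbb-bt 0.04. Ltf stayed above 0, while Hba-a2 and Alas2 stayed below 0. In both settings iKO 5 and iKO 6, which were high for the neutrophil genes, remained in the iKO group. The intervals over all 12 libraries reach below -2 for the 9 genes other than Ltf, so a 4-fold lower level lies within them, and their upper ends lie between 0.55 (Hba-a2) and 0.96 (S100a8). For Ltf the interval was -1.06 to 1.89.

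**Figure D5:**
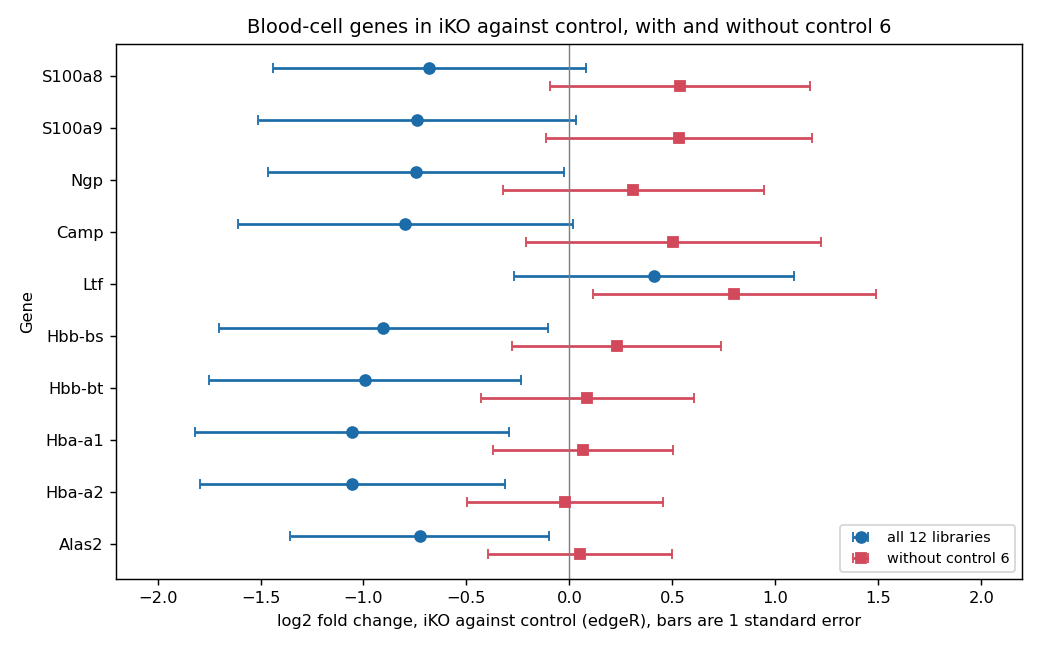
Log2 fold change of iKO against control from edgeR for the 10 genes, with bars of 1 standard error, from all 12 libraries (blue circles) and without control 6 (red squares). Blue values are below 0 except Ltf, and without control 6 they lie at or above 0 except Hba-a2 (-0.02).

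In replicates 1 to 4 none of the 10 genes was called, against 19 of 16637 (0.114%). The medians were -0.67 for the neutrophil and -0.39 for the red cell genes, and 0 of the 10 values were above 0. This contrast compares neither control 6 nor iKO 5 and iKO 6, which share only the estimate of spread with it. A sign below 0 was therefore not confined to comparisons that hold control 6. In replicates 5 and 6, whose controls were Fl/Fl animals with corn oil, none was called either, against 1 gene in all (0.00601%), with medians of -0.87 and -1.82. The lowest unadjusted p was that of Hba-a1 in replicates 5 and 6, at 0.0428, with a log2 fold change of -2.09 ± 0.915 (SE) and an adjusted p of 0.626 in edgeR. Without control 6, Hba-a1 there was 0.33. The difference between the 2 replicate sets was called for 0 of 16637 genes (0%) in edgeR, 568 genes having an unadjusted p under 0.05, none of them among the 10.

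The sex term of the fit was below 0, lower in females, for all 10 genes. Its medians were -2.19 (neutrophil) and -1.34 (red cell) on the log2 scale. Single libraries of the sexes overlapped. S100a9 measured 55.2 CPM in female control 2 and 22.4 CPM in male control 3, and Hbb-bs 72.6 CPM in female iKO 3 and 51.5 CPM in male control 3. None of the 10 was called, against 18 of 16637 genes (0.108%). The 5 neutrophil genes had unadjusted p of 0.0119 (Camp) to 0.0216 (Ltf), and adjusted p of 0.443 to 0.447 in edgeR, where 1693 of the 16637 genes had an unadjusted p under 0.05. All 4 libraries of replicates 5 and 6 were male, control 6 and iKO 5 among them. Within replicates 1 to 4, which hold 5 female and 3 male libraries, the values ran from -0.82 (Ltf) to -0.17 (S100a9) for the neutrophil genes. Of the red cell genes there, Hbb-bs measured 0.16, Hbb-bt 0.11, Hba-a1 0.12, Alas2 0.13 and Hba-a2 -0.07, and none of the 10 was called.

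The lists of blood, marrow, bone, vessel and glial genes held no gene called in edgeR in any of these comparisons. In iKO against control over all 12 libraries, the medians of the log2 fold change were -0.66 for the late neutrophil list, -0.43 for the early granulocyte list, -0.67 for the other erythroid list, -0.37 for platelet genes, -0.08 for bone and cartilage and -0.33 for proliferation, beside 0.00 for all genes tested.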

How the data were processed

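Each library has a deposited table of whole read counts by gene, which the authors left unscaled. The kit was a TruSeq mRNA kit without strand marking, per the labels' protocols. Tools listed in the submitters' processing notes are featureCounts 2.0.1, STAR 2.7.8a and bcl2fastq 2.20.0.422, with build GRCm39. The sources used here do not give the annotation release or the counting options. Symbols came from reference tables for GRCm38, matched 52083 of 55416 identifiers, and left 3333 without one (0.274% of counts).

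CPM were computed here from the library total. Tests used edgeR 4.0.16 in R 4.3.3 (quasi-likelihood, sex as a covariate, filterByExpr, which kept 16637 genes, and TMM factors of 0.969 to 1.02), with Benjamini-Hochberg adjustment over all genes tested and a threshold of 0.05. Replicates 1 to 4 and 5 and 6 were contrasts in 1 fit of all 12 libraries. Correlations used log2(CPM + 1), with 100000 permutations, or exact permutations for 8 libraries. DESeq2 1.42.0 and limma 3.58.1 gave alternatives, beside other scalings, filters, subsets of animals and leaving out each library. Nothing says that a replicate number marks a shared litter or day, and p-values measure the spread between these labelled animals. Over 30 within-group library pairs, chi-square divided by its degrees of freedom was 7.63 to 29.4, so no library was a copy of another.

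The 10 genes and all lists were chosen with earlier results of these data known, so they are no independent support for a pattern. Named were the 10 genes, Prdm12, from each list up to 4 genes of the highest mean CPM or those that passed, and the 5 genes most like each kind (Pearson's r). Some genes of the lists are not reported here. Genes named outside the rule are said to be so. The tests were tried on simulated counts: in iKO against control over 16517 genes they found 85% of 2-fold and 57% of 1.5-fold changes, with 12 false calls. For replicates 1 to 4 the shares were 77% and 48%, for replicates 5 and 6 56% and 18%, and for the sexes 84% and 58%. The changed genes were drawn at random from expressed genes. These shares therefore do not describe the 10 genes, whose spread ranked 29 to 139 from the top. Recovery for genes that variable was not measured.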

Additional observations from a re-analysis of the deposited data

Results flagged for a closer look

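Dixon's test for a sample far from the others of its group marks about 1 in 20 groups by chance, and here 11 of the 20 groups of gene and genotype were marked. These groups are not independent: the genes of each kind move together over the same libraries, so a single library can mark many genes. The 11 of 20 therefore cannot be set against 1 in 20. Among the controls, control 6 stood apart for S100a8 (304 CPM), S100a9 (528 CPM), Ngp (278 CPM), Camp (147 CPM), Hbb-bs (494 CPM), Hbb-bt (131 CPM), Hba-a1 (117 CPM), Hba-a2 (71.9 CPM) and Alas2 (40.3 CPM). Its sums over the 5 neutrophil genes (1476 CPM) and the 5 red cell genes (854 CPM) stood apart too. Among iKO, iKO 5 stood apart for S100a9 (216 CPM) and Camp (64.9 CPM). Ltf marked no library in either group.

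Control 6 also stood apart in the summed CPM of the other late and mature neutrophil genes (452), early granulocyte genes (149), other erythroid genes (537), platelet and megakaryocyte genes (139), lymphocyte genes (25.1), monocyte genes (158), bone and cartilage genes (159) and proliferation genes (109). In the iKO group, iKO 5 stood apart for early granulocyte genes (111 CPM), platelet and megakaryocyte genes (64.6 CPM) and bone and cartilage genes (177 CPM).

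In ratios, iKO 3 stood apart in the red cell share of red cell plus neutrophil counts (89.5%), and control 3 in the ratio of Ltf to Camp (23.2). Control 2 stood apart for the embryonic globins, at a sum of 0.362 CPM, a handful of counts. No cause of these differences was tested.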

How the results depend on the processing

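Of 736 values of the 10 genes under the alternatives (40 results in 4 comparisons), 695 kept their direction and 41 did not. The only calls among them were 17 made without a filter on low counts, which raised edgeR's prior degrees of freedom from 4.19 to infinity in the fit with replicate sets: 7 of the 10 genes in replicates 1 to 4 and 10 in replicates 5 and 6. The count of genes called in iKO against control (63) was 138 with no filter, 338 in DESeq2, 28 with tamoxifen-injected animals only and 23 (without control 2) to 88 (without control 6) when a library was left out. For replicates 1 to 4 (19 genes) it was 621 with no filter, 139 in DESeq2 and 2 (without iKO 4) to 18 when a library was left out. For replicates 5 and 6 (1 gene) it was 1014 with no filter, 69 in DESeq2, 2 with DESeq2's size factors, 2 with at least 1 CPM in 6 libraries, and 1 to 26 (without iKO 6) when a library was left out. For the sexes (18 genes) it was 33 with no filter, 50 in DESeq2, and 11 to 15 when a library was left out. Settings added after seeing the data gave 9 without control 6, iKO 3 and iKO 5, and 2 in replicates 1 to 4 only.

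Replicate numbers did not pair the libraries (the correlation of same-numbered deviations ran from -0.396 to 0.350), and with the number as a block 34 genes were called in iKO against control and 4 in replicates 1 to 4, none of the 10 among them. Of the 10 genes in iKO against control, leaving out a library gave ranges of -1.18 to 0.54 (S100a8), -1.33 to 0.53 (S100a9), -1.30 to 0.31 (Ngp), -1.54 to 0.50 (Camp), -0.093 to 0.80 (Ltf), -1.42 to 0.23 (Hbb-bs), -1.42 to 0.087 (Hbb-bt), -1.49 to 0.066 (Hba-a1) and -1.09 to 0.049 (Alas2). In replicates 1 to 4 they were -1.07 to 0.21 (Ltf), -1.16 to 0.22 (Hbb-bs), -1.26 to 0.14 (Hbb-bt), -0.97 to 0.22 (Hba-a1) and -1.17 to 0.076 (Hba-a2). In replicates 5 and 6, where leaving out a library leaves a lone animal assumed to vary like the others, they were -1.82 to 2.28 (S100a8), -1.88 to 2.26 (S100a9), -1.67 to 2.07 (Ngp), -1.90 to 2.25 (Camp), -0.094 to 3.29 (Ltf), -2.70 to 0.76 (Hbb-bs), -2.61 to 0.80 (Hbb-bt), -2.95 to 0.33 (Hba-a1), -2.84 to 0.32 (Hba-a2) and -2.11 to 0.74 (Alas2). With tamoxifen-injected animals only, values that turned above 0 were 0.29 (S100a8), 0.28 (S100a9), 0.048 (Ngp), 0.24 (Camp), 0.22 (Hbb-bs), 0.043 (Hbb-bt) and 0.10 (Hba-a1). Without control 6, iKO 3 and iKO 5 those that turned were 0.32 (S100a8), 0.19 (S100a9), 0.053 (Ngp) and 0.016 (Camp). In limma-voom Camp was 0.054. For the sexes in replicates 1 to 4 only, Hbb-bs was 0.16, Hbb-bt 0.11, Hba-a1 0.12 and Alas2 0.13. The median r between the kinds (0.669) was 0.954 on CPM without a log, -0.200 in replicates 1 to 4, -0.00129 without the 2 libraries farthest from the neutrophil gene's median, and 0.325 (without control 6) to 0.887 (without iKO 3) when a library was left out. Apart from the filter, the cause of these changes was not tested. Low counts limit the early granulocyte values in iKO 3, where Elane rests on 3 counts in a library of 23577543.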
